A study of Mus musculus with 6 samples.

Results

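Migratory dendritic cells, marked by the chemokine receptor Ccr7 and the actin-bundling protein Fscn1, made up 75 of the 32953 CD45+ cells sequenced from the synovium of mice with antigen-induced arthritis (AIA), or 0.228% of cells (95% Wilson interval 0.182% to 0.285%). They were chosen cell by cell from counts of unique molecular identifiers (UMIs, tags that each mark 1 captured RNA molecule). A member had at least 2 Ccr7, 1 Fscn1 and 5 H2-Ab1 UMIs, none of the B cell gene Cd79a, the T cell genes Cd3d, Cd3e and Cd3g or the plasmacytoid gene Siglech, and fewer than 2 UMIs of Clec9a and Xcr1 together. The levels of these genes therefore describe the choice, and because the choice was made on measured values, no test was made of any other gene in the same cells.

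Male C57BL/6J mice, 8 weeks old at purchase, were immunized subcutaneously with 10 μg methylated bovine serum albumin (mBSA) in complete Freund's adjuvant and received 100 μg mBSA into the knee joint on day 21. Treatment began with this challenge: mice were given PBS as vehicle, or 300 μg of PEPITEM, a peptide that limits leukocyte entry into tissue, into the peritoneum, so every group carried the arthritis. On day 3 after the challenge, synovial cells were sorted on CD45 and sequenced from the 3′ end of the RNA in 2 vehicle and 4 PEPITEM samples. Cells of the 6 libraries are told apart by a number that no source used here ties to a sample, so vehicle and PEPITEM were not compared, and the libraries are given as 1 to 6 with treatment unknown.

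Dendritic cells take up antigen in tissue and present it on major histocompatibility complex (MHC) molecules. On maturing they gain CCR7, which guides them along CCL19 and CCL21 into lymph vessels and nodes, and they rebuild their actin skeleton with the help of fascin, the product of Fscn1. The same change is known to raise costimulatory and checkpoint ligands and to lower uptake receptors, in both conventional lineages: type 1, which takes up dead cells and presents to CD8 T cells, and type 2, which presents mainly to CD4 T cells. As comparison groups, 188 type 1 cells (at least 2 UMIs of Clec9a and Xcr1 together) and 551 type 2 cells (at least 2 of Cd209a and fewer than 2 of Clec9a and Xcr1) were taken with the same conditions on H2-Ab1, Cd79a, the Cd3 genes and Siglech and with fewer than 2 Ccr7 UMIs.

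The label was checked on the 2 markers that the rule had not used. Ccl22, a chemokine that attracts T cells bearing CCR4, was counted in 57 members (76.0%), against 8.51% of type 1 cells, 14.5% of type 2 cells and 0.722% of the 32139 cells in none of these groups. Zbtb46, a transcription factor of conventional dendritic cells, was counted in 66 members (88.0%), against 63.3% of type 1, 45.9% of type 2 and 4.22% of the other cells. The median depth was 17629 UMIs in members, 21708 in type 1, 20075 in type 2 and 11090 in other cells. With every cell thinned to 5000 UMIs, which left out 2 members, Ccl22 was counted in 58.9% of members, 4.84% of type 1 and 7.16% of type 2 cells. Zbtb46 was counted in 64.4%, 30.6% and 23.3% at this depth. Both markers thus stood above the other cells, as the label has it, although 4 members (5.33%) had no UMI of Zbtb46, the cytokine receptor Flt3 or the organelle-transport gene Mreg.

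The 6 libraries did not contribute alike. Library 3 held 26 members, libraries 1 and 4 held 14 each, library 5 held 11, library 2 held 6 and library 6 held 4. As a share of cells this was 0.891% (95% interval 0.609% to 1.30%) in library 3, 0.419% in library 1 and 0.350% in library 4, against 0.118% in library 5, 0.103% in library 2 and 0.0531% (0.0206% to 0.136%) in library 6. The interval of library 3 overlapped with that of library 1 but not with those of libraries 2, 4, 5 and 6. Among the 814 cells of the 3 dendritic cell groups, members were 9.21%, from 5.0% (1.96% to 12.2%) in library 6 to 14.9% (10.4% to 21.0%) in library 3, and these intervals overlapped. Without library 3 the share of all cells was 0.163%. The intervals cover counting error only.

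**Figure D1:**
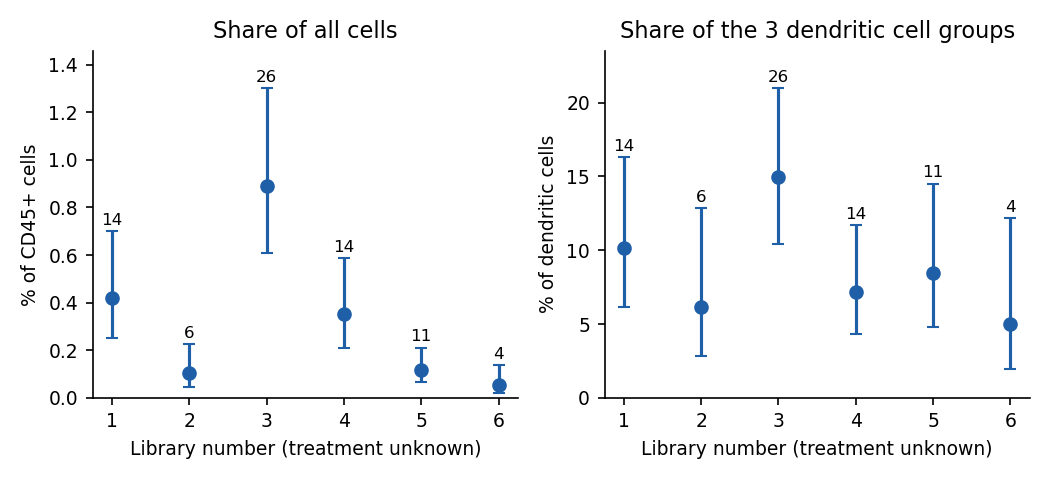
Share of migratory dendritic cells in each of the 6 libraries, as a percentage of all CD45+ cells (left) and of the 3 dendritic cell groups (right), with the number of members above each point and 95% Wilson intervals as bars. Library 3 was the highest on both scales, at 0.891% and 14.9%, and library 6 the lowest, at 0.0531% and 5.0%.

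The thresholds of the rule passed through sparse and crowded regions alike. Of 2749 cells with at least 2 Ccr7 UMIs, 2639 had no Fscn1, and 2189 of those carried Cd79a and 201 a Cd3 gene, so that among these cells the Fscn1 condition removed most. Members had 2 to 192 Ccr7 UMIs (median 50), 1 to 98 of Fscn1 (median 16) and 5 to 457 of H2-Ab1 (median 99). Just inside the limits, 2 members had exactly 2 Ccr7, 7 had exactly 1 Fscn1 and 2 had exactly 5 H2-Ab1 UMIs. Just outside, 1 cell had 1 Ccr7 UMI and 17 cells had 0 to 4 H2-Ab1 UMIs with every other condition met. Members held 64.0% of all Fscn1 UMIs in the table and 18.6% of all Ccr7 UMIs. Ccr7 lies on chromosome 11, 99144196 to 99155077 (minus strand, GRCm38), and Fscn1 on chromosome 5, 142960343 to 142973185 (plus strand).

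Levels are given below as the sum of a gene's UMIs in a group per 1000000 UMIs of that group (CPM), pooled over the 6 libraries, with exact Poisson 95% intervals where printed. Values by library are given for libraries 1, 3, 4 and 5, which held at least 10 members each and 65 members together. A gene was called higher or lower when the pooled levels, with 5 CPM added, differed at least 4-fold and the direction was the same in each of the 4 libraries. Against type 1 cells, 274 of 8176 genes were called higher (3.35%) and 221 lower (2.7%). Against type 2 cells, 234 of 8032 genes were higher (2.91%) and 285 lower (3.55%). Against both groups, 186 of 7780 genes were higher (2.39%) and 101 lower (1.3%), the background beside which the gene lists are to be read. The median log2 ratio of all genes was -0.26 against type 1 and -0.17 against type 2 cells. With the ratios divided by that median, 257 genes were higher and 62 lower. Without the 9 members rich in markers of other types, which here means at least 20 UMIs of the neutrophil list, of the macrophage list or of Gata3 and Il1rl1 together, library 5 fell below 10 members, and with the direction asked of 3 libraries 224 genes were higher and 317 lower. With the same 4 libraries kept, the counts were 208 and 317. Without library 3, again with 3 libraries, they were 187 and 152. The number of lower genes thus moved by more than 1.5 times, while the 15 genes named below as lower were called in each of these settings.

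**Figure D2:**
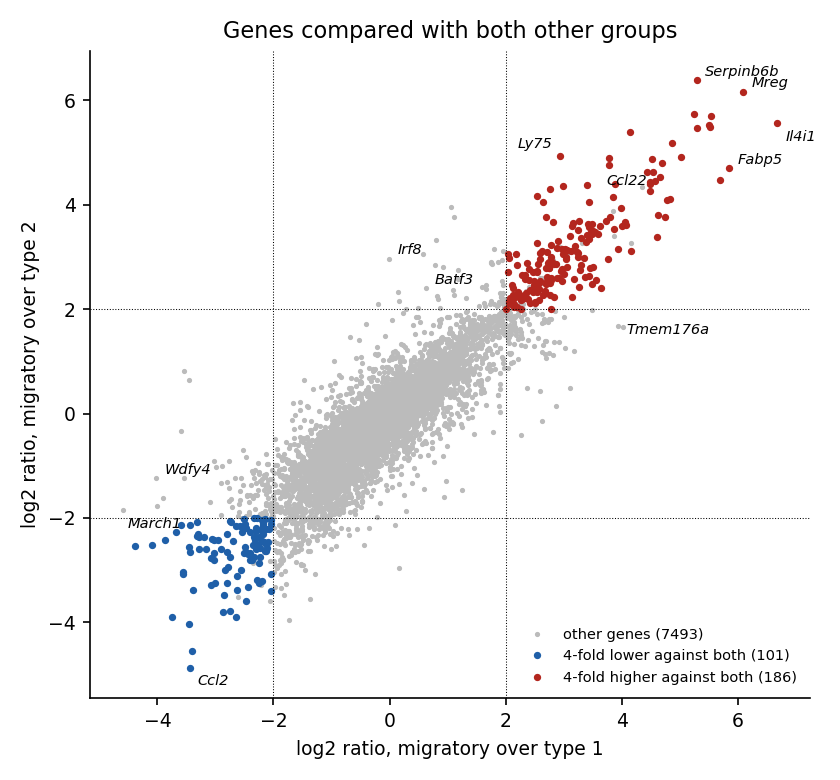
Each point is 1 of the 7780 genes compared with both groups, with the log2 ratio of migratory over type 1 cells on the horizontal axis and over type 2 cells on the vertical axis. The 186 genes called higher against both (red) and the 101 called lower (blue) lie beyond the dotted lines at 4-fold, and Irf8 and Batf3 sit high on the vertical axis only.

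Ccl22 and Ccl5 were the chemokine ligands called higher against both groups. Ccl22 lies on chromosome 8, 94745590 to 94751699 (plus strand), and was at 973 CPM in members (923 to 1026), 33.6 CPM in type 1 and 37.0 CPM in type 2 cells. Its level was 668 CPM in library 1, 802 in library 3, 211 in library 4 and 2151 in library 5. Each of these was above the highest library of type 1 (87.4 CPM) and of type 2 cells (72.8 CPM), although they differed widely among themselves. Ccl5, which attracts T cells and monocytes, was at 1034 CPM against 54.0 in type 1 and 19.7 in type 2 cells, a ratio of 19.1 and 52.4. Ccl17, which shares the receptor of CCL22, was at 331 CPM against 33.8 in type 1 and 234 in type 2 cells. A single cell supplied 40.4% of the members' Ccl17 UMIs, and of 25 members with Ccl17, 24 also had Ccl22. Cxcl16, the ligand of CXCR6, was at 680 CPM against 149 and 197 and was counted in all 75 members.

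Ccl2, Ccl4 and Ccl7 were chemokine ligands called lower against both groups. Ccl2, which attracts monocytes, was at 4.88 CPM, against 103 in type 1 and 287 in type 2 cells, which made it 21.0-fold and 58.7-fold lower. By library it was at 9.68 CPM in library 1, 0 in library 3, 7.14 in library 4 and 10.3 in library 5, below the lowest library of either comparison group. Ccl7, a related ligand, was at 2.79 CPM against 77.4 and 179, and Ccl4, an inflammatory chemokine, at 51.6 CPM against 454 and 389, with 63.5% of its UMIs in 1 member. The macrophage markers, described at the end, moved with them, at 217 CPM in members against 1051 in type 1 and 2555 in type 2 cells. With cells rich in markers of other types left out of all 3 groups, Ccl2 was still called, with its log2 ratio against type 2 cells moving from -4.88 to -2.82, and Ccl4 was called at -3.26 and -3.12. Ccl7 lost its call there, at -2.66 against type 1 and -1.71 against type 2 cells. Of the 13 members of the chemokine ligand list compared with both groups, 2 were higher (Ccl22 and Ccl5) and 2 lower (Ccl2 and Ccl4), and Ccl7 is not on that list. Ccl19, itself a ligand of CCR7, had 1 UMI in all members.

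Among chemokine receptors other than Ccr7, none of 6 was higher and 1 was lower. This was Ccr2, which draws monocytes and their descendants out of blood and into tissue. It was at 46.1 CPM (71.0 in library 1, 59.1 in library 3, 46.4 in library 4 and 5.16 in library 5), against 297 CPM in type 1 and 403 CPM in type 2 cells. No library of members came near the lowest type 1 library, at 279 CPM. S1pr1, the sphingosine 1-phosphate receptor that guides lymphocyte exit and that belongs to the PEPITEM pathway, had no UMI in members, which allows up to 2.09 CPM, and 1.49 and 4.27 CPM in type 1 and type 2 cells. The adiponectin receptors Adipor1 and Adipor2, to which PEPITEM release is tied, were at 46.1 and 63.5 CPM in members, 79.5 and 98.4 in type 1 and 101 and 89.1 in type 2 cells. None of the 4 PEPITEM pathway genes compared was called in either direction.

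Genes of movement and the cell skeleton were mixed. Of 16 compared with both groups, 3 were higher and none lower, with a median log2 ratio of 0.75 against type 1 and 0.04 against type 2. Samsn1, an adaptor protein of immune cells, was at 1969 CPM against 202 and 362. Tbc1d4, which controls vesicle traffic through Rab proteins, was at 1557 CPM against 108 and 52.7, and Anxa3, a calcium-dependent membrane-binding protein, at 378 CPM against 33.8 and 48.1. Marcksl1, an actin-binding protein, was 7.43-fold higher than in type 1 cells and 2.21-fold higher than in type 2 cells, short of a call. Cd44, a hyaluronan receptor, was at 472 CPM against 1169 and 1509, and Tmsb10, an actin-binding peptide, at 1446 CPM against 4548 and 2177.

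The cytokine list gave 2 higher genes and no lower gene of 9. Il12b, the p40 subunit shared by interleukins 12 and 23 (chromosome 11, 44400063 to 44414033, plus strand), was at 283 CPM against 4.89 in type 1 and 2.95 in type 2 cells. It was at 236 CPM in library 1, 129 in library 3, 179 in library 4 and 686 in library 5, each above the highest comparison library, at 9.35 CPM. It was also concentrated in few cells, since 22 members had any UMI and 10 members held 91.4% of all of them. The partner subunits Il12a and Il23a were at 5.58 and 0 CPM, and a count of 0 allows up to 2.09 CPM. Il15ra, which presents interleukin 15 to lymphocytes, was 11.4-fold higher than in type 1 and 16.1-fold higher than in type 2 cells, with 37 members carrying it. Il1b, a central cytokine of joint inflammation, was abundant in every group, at 2386 CPM in members, 1920 in type 1 and 2845 in type 2 cells.

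**Figure D3:**
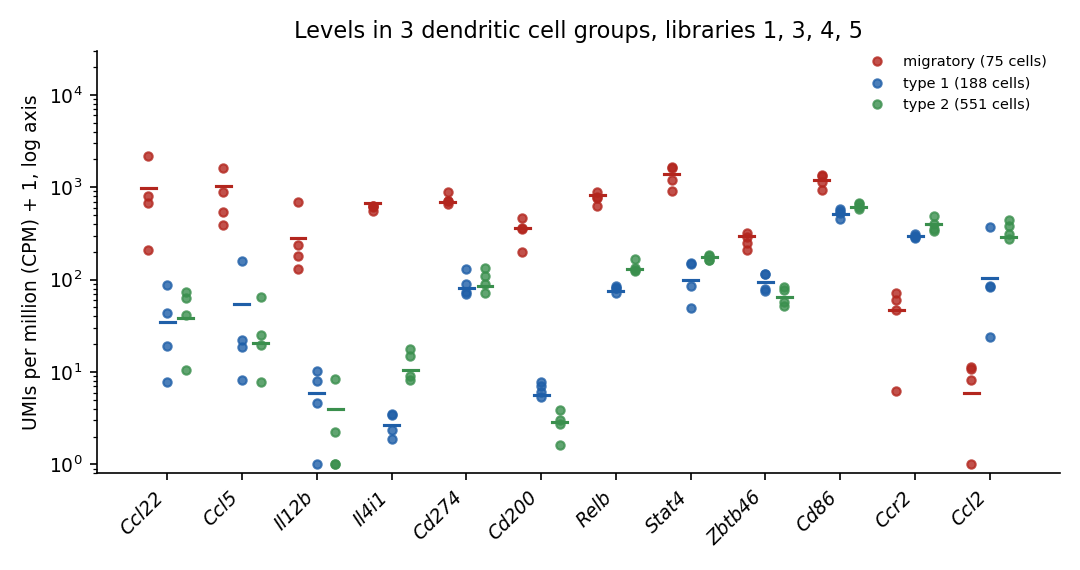
Levels of 12 genes in migratory (red), type 1 (blue) and type 2 (green) dendritic cells on a log axis of CPM + 1, where points are libraries 1, 3, 4 and 5 and short lines the values pooled over 6 libraries. For Ccl22, Ccl5, Il12b, Il4i1, Cd274, Cd200, Relb, Stat4, Zbtb46 and Cd86 every red point lies above every blue and green point, and for Ccr2 and Ccl2 below.

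Costimulatory genes stood above the median of all genes, but only 1 of 9 passed the 4-fold limit against both groups. This was Tnfsf4, the OX40 ligand, at 118 CPM against 0 UMIs in type 1 cells, which made it at least 185-fold higher with a floor of 3 UMIs over the group, and 3.81 CPM in type 2 cells. Its receptor Tnfrsf4 was at 112 CPM in the members, against 1 UMI in type 1 cells and 0.544 CPM in type 2 cells. Cd40, which receives help from T cells, was at 226 CPM, 4.52-fold above type 1 and 2.27-fold above type 2 cells. Cd80, a ligand of CD28, was at 448 CPM against 140 and 200, and Cd86, its companion, at 1206 CPM against 517 and 608. Cd83, a maturation marker, was at 1020 CPM against 694 and 744 and was counted in every member. The list's median log2 ratio was 1.78 against type 1 and 1.06 against type 2 cells.

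Regulatory and checkpoint genes held the largest share of higher genes among the lists of this report, at 5 of 12 compared with both groups. The lists were chosen with earlier results of these data known, so this ranking is a description. Il4i1, a secreted oxidase of phenylalanine, was at 682 CPM against 1.70 in type 1 and 9.40 in type 2 cells. It was at 620 CPM in library 1, 612 in library 3, 632 in library 4 and 557 in library 5. In libraries 2 and 6, with 6 and 4 members, it was at 1175 and 1227 CPM. Members held 27.7% of all Il4i1 UMIs in the table (chromosome 7, 44816387 to 44840809, plus strand). Cd200, the ligand of an inhibitory receptor on myeloid cells, was at 361 CPM against 4.68 and 1.86, and by library it was at 465, 354, 364 and 196 CPM in libraries 1, 3, 4 and 5. Cd274 and Pdcd1lg2, both ligands of PD-1, were at 698 CPM against 81.0 and 83.3 and at 216 CPM against 48.7 and 28.7. Socs2, a suppressor of cytokine signaling, was at 415 CPM against 5.74 and 4.43. Aldh1a2, which makes retinoic acid, was counted in 8 members, with 47.8% of its 23 UMIs in 1 of them, and Ido1 and Ido2, which degrade tryptophan, had no UMI, which allows up to 2.09 CPM.

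MHC class II genes other than H2-Ab1 had a median log2 ratio of 0.44 against type 1 and 0.33 against type 2, with 2 of 11 higher and 1 lower. All 3 groups had to hold at least 5 H2-Ab1 UMIs. The 17 cells that this condition alone left out of the members had H2-Aa at 1018 CPM and Cd74 at 2809 CPM. The class II levels of members thus follow in part from the choice. H2-Aa, the partner chain of H2-Ab1, was at 8000 CPM against 5888 and 6390, and Cd74, the invariant chain, at 15481 CPM against 13346 and 16304. The higher genes were H2-Eb2, a class II beta chain gene, at 89.3 CPM against 11.3 and 4.74, and H2-DMb2, a subunit of the peptide-loading molecule, at 328 CPM against 52.1 and 61.0. The closely related H2-DMb1 was at 237 CPM against 694 and 706. Reads shared between the H2-DMb genes could have been split by the authors' counting, so these values are uncertain. The lower gene was March1, a ubiquitin ligase that removes class II and CD86 from the surface, at 7.68 CPM against 210 and 67.6, which was 27.4-fold and 8.80-fold lower. With cells rich in markers of other types left out of all 3 groups, 1 of 11 was higher against both and March1 was lower. The list's median was then 0.34 against type 1 and 0.069 against type 2 cells.

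MHC class I genes had 3 of 18 higher and none lower. All 3 were nonclassical genes with close copies in the genome, so their counts are uncertain. H2-Q7 was at 547 CPM against 77.8 and 69.3, H2-Q6 at 193 CPM against 23.6 and 16.2, and H2-M2 at 51.6 CPM against no UMI in either group. H2-M2 was thus at least 80.9-fold higher than in type 1 and at least 222-fold higher than in type 2 cells, although only 11 members carried it. The classical H2-K1 was at 1922 CPM against 785 and 973, and B2m, the shared light chain, at 3077 CPM against 1445 and 1773.

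All 16 NF-κB genes had a higher pooled level than in type 1 cells and 13 than in type 2 cells, with 3 called higher against both. The list's median log2 ratio was 1.64 against type 1 and 0.68 against type 2 cells, beside -0.26 and -0.17 for all genes. The noncanonical branch of this pathway, in which TRAF3 and cIAP1 restrain the kinase NIK and the product of Nfkb2 pairs with RelB, is known to act in dendritic cell maturation. Relb (chromosome 7, 19606217 to 19629438, minus strand) was at 817 CPM against 74.6 and 128. It was at 784 CPM in library 1, 888 in library 3, 764 in library 4 and 624 in library 5, and no comparison library exceeded 167 CPM. Traf3 was at 733 CPM against 110 and 141, and Birc2, which encodes cIAP1, at 255 CPM against 22.3 and 27.3. Nfkb2 was at 151 CPM against 43.2 and 61.4, and Map3k14, which encodes NIK, at 732 CPM against 479 and 366. Nfkb1, of the canonical branch, was at 1112 CPM against 413 in type 1 but 1163 in type 2 cells.

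Promoter windows of 250 bases before to 50 after the start (RefSeq, GRCm38.p6) were searched on either strand for NF-κB-like runs of 10 letters, GGG, any 2 bases, and TTTCC or TTCCC. Of the 20 genes with the highest ratios named further on, 14 had 18 windows in the table, and 1 window held a match (5.56%), against 1063 of 32851 windows in all (3.24%). The single match was in Il2ra. Nfkb2 is shown beside it because each of its 3 windows in the table held a match. Of these windows, 2 overlap and share the same match. The window printed is the one with the most, 3 matches of which 2 overlap. Ccl22 is shown because it marks these cells by the label and its window held none. Capitals mark the matches, and a match is a description of letters, not a binding site.
Nfkb2, chr19:46304487-46304786, plus strand: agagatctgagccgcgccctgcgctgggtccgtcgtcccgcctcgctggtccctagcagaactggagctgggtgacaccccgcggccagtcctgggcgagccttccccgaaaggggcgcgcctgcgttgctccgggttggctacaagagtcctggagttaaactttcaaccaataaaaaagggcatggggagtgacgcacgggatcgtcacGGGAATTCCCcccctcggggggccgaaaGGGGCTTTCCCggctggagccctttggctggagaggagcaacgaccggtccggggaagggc
Il2ra, chr2:11642542-11642841, plus strand: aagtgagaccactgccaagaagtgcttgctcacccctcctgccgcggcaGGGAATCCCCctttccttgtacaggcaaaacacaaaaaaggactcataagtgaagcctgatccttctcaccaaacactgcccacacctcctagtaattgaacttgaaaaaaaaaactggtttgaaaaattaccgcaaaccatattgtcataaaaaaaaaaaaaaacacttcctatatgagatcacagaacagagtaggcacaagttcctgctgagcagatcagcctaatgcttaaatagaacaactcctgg
Ccl22, chr8:94745434-94745733, plus strand: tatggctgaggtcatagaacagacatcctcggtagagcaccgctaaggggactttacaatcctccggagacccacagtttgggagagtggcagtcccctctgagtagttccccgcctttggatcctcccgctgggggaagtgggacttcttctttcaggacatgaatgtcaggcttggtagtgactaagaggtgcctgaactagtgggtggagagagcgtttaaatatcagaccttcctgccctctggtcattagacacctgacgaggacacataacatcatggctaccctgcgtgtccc

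Of 20 transcription factors compared with both groups, 2 were higher. Stat4, which relays interleukin 12 and type I interferon signals, was at 1398 CPM against 98.0 and 175, with 1636, 1599, 1189 and 918 CPM in libraries 1, 3, 4 and 5. Nr4a3, an orphan nuclear receptor tied to CCR7-dependent migration of dendritic cells, was at 1421 CPM against 196 and 299. Zbtb46 was at 295 CPM against 92.3 and 64.5, with 287, 316, 211 and 248 CPM in libraries 1, 3, 4 and 5. These values did not overlap with those of type 1 (highest 115 CPM) or type 2 cells (highest 81.6 CPM), but against type 1 the pooled ratio was short of the 4-fold limit.

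Lineage factors divided between the groups. Irf8, which type 1 cells need, was at 562 CPM against 564 in type 1 and 67.3 in type 2 cells. Batf3, its partner, was at 179 CPM against 114 and 29.7. Irf4, a factor of type 2 cells, was at 85.8 CPM against 9.78 in type 1 and 94.8 in type 2 cells. Members thus had levels near those of type 1 cells for Irf8 and near those of type 2 cells for Irf4. Of the 13 type 1 identity genes compared with type 1 cells, Irf8 and Batf3 included, 9 were called lower, among them Wdfy4, needed for cross-presentation, at 39.1 CPM against 711. Naaa, a lysosomal amidase, was at 53.7 CPM against 746, and Tlr3, which senses double-stranded RNA, had 0 UMIs (up to 2.09 CPM) against 41.5 CPM. Cd8a, a coreceptor chain also found on some dendritic cells, stood the other way at 34.2 CPM against 5.74, without a call. Of type 2 identity genes, 5 of 13 were lower than in type 2 cells, including the lectins Mgl2 at 61.4 CPM against 513, with 72.7% of its UMIs in 1 member, and Clec10a at 17.4 CPM against 259. Both comparison groups had been chosen through genes of these identities.

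Cell by cell, the identity sums of members rested on 2 genes of each list. The type 1 list without Clec9a and Xcr1 summed to a median of 7.44 UMIs per 10000 in members, 34.9 in type 1 and 5.50 in type 2 cells. Irf8 and Batf3 made up 79.3% of it in members, against 19.8% in type 1 and 14.5% in type 2 cells. With the other 11 genes alone the medians were 0.779, 25.9 and 4.73, so that members lay below both groups. The type 2 list without Cd209a summed to 23.1 in members, 8.42 in type 1 and 39.7 in type 2 cells. The membrane protein genes Tmem176a and Tmem176b made up 63.3% of it in members, against 8.14% in type 1 and 15.3% in type 2 cells, and with the other 12 genes alone the medians were 4.93, 8.28 and 32.6. For the full type 1 list, 17 members lay above the lower quartile of type 1 cells, at 11.6, as did 61 of the 551 type 2 cells, and without Irf8 and Batf3, 2 members and 71 type 2 cells lay above that quartile, then at 9.61. These 2 pairs were left out after the values had been seen.

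Uptake and sensing genes were below the median of all genes, at a median log2 ratio of -1.10 against type 1 and -1.91 against type 2 cells. Of 15 compared with both groups, 2 were lower and 1 higher. Cd36, a scavenger receptor, had 3 UMIs in members against 45.9 and 74.2 CPM, a call that did not hold against type 2 cells once cells rich in markers of other types were left out of every group, and Fcgr1, the high-affinity IgG receptor, was at 8.37 CPM against 65.9 and 88.0. The exception was Ly75, which encodes the uptake receptor DEC-205, at 453 CPM against 55.1 and 9.94. Mrc1, the mannose receptor, was at 28.6 CPM against 107 and 517. Macrophage and neutrophil markers moved with this list, at 217 CPM against 1051 and 2555 and at 6287 CPM against 20466 and 40629. With cells rich in markers of other types left out of all 3 groups, the list's median was -1.20 over 13 genes against type 1 and -2.25 over 12 genes against type 2 cells. Of 11 genes then compared with both groups, 1 was higher (Ly75) and 1 lower (Lyz2, a lysozyme of myeloid cells). Fcgr1 lost its call against type 1 cells, at -1.61, and Mrc1 moved from -1.74 to -0.10 against type 1 cells. Of 13 lysosomal and proteolysis genes, none was called against both groups, with the cathepsin gene Ctsd at 41.9 CPM against 129 and 193.

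Survival genes had 4 of 12 higher and none lower. Bcl2a1b and Bcl2a1a, relatives of Bcl2 that oppose cell death, were at 1199 CPM against 171 and 294 and at 244 CPM against 51.7 and 55.6, and as near-identical copies they are uncertain. Serpinb9, an inhibitor of granzyme B, was at 535 CPM against 18.5 and 13.3, and Serpinb6b, a related inhibitor with close copies, at 564 CPM against 9.57 and 1.79. Bcl2 itself was at 9.07 CPM against 38.3 and 27.3. Of 11 cell cycle genes compared with both groups none was higher and 1, Ube2c, was lower, at 4.88 CPM against 63.6 and 43.7. With cells rich in markers of other types left out of all 3 groups, 4 of 12 survival genes were higher and 1, Bcl2, was lower. Of 12 cell cycle genes then compared with both groups, 3 were lower, Top2a, Ccnb2 and Ube2c.

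Interferon-stimulated genes had a median log2 ratio of -0.44 against type 1 and -0.92 against type 2 cells, and none of 11 was lower against both. Irf7, a transcription factor of the interferon response, was at 20.2 CPM against 103 and 72.0, and Ifit2, an antiviral gene, had 2 UMIs in members against 30.4 CPM in type 1 cells. With cells rich in markers of other types left out of all 3 groups, 1 of 11, Irf7, was lower against both. Among the transcripts of proteins measured in these joints, Ccl5 was higher, and Ccl2 and Trem2 lower, of 9 compared, and without cells rich in markers of other types Trem2 was not called, at a log2 ratio of -0.82 against type 1 and -1.92 against type 2 cells. The paper names TREM-2 in its methods and reports TREM-1 in its results. Trem1 was called lower against type 2 cells only, and not once those cells were left out. Il16, a chemoattractant of CD4 T cells, had no UMI in members (up to 2.09 CPM) and was at 11.5 and 10.4 CPM in the comparison groups.

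**Figure D4:**
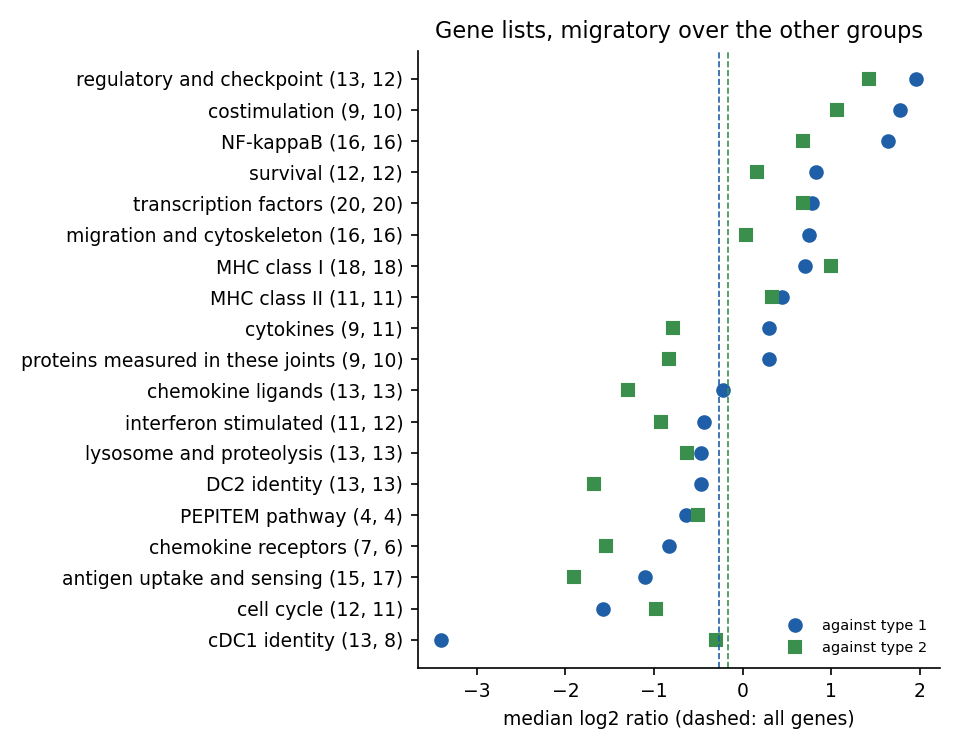
Median log2 ratio of each of the 19 gene lists in migratory over type 1 (blue circles) and type 2 cells (green squares), with the number of genes compared with each in brackets and dashed lines at the median of all genes (-0.26 and -0.17). In order of the ratio to type 1 cells, regulatory, costimulatory and NF-κB genes stood at the top and type 1 identity genes against type 1 cells at the bottom.

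The 20 genes with the highest ratios against both groups spanned several functions. The first was Mreg (chromosome 1, 72159442 to 72212307, minus strand), which takes part in the transport of lysosome-related organelles, at 495 CPM against 2.34 and 1.94. It was at 426 CPM in library 1, 551 in library 3, 553 in library 4 and 315 in library 5, and no comparison library exceeded 9.57 CPM. Cacnb3, a calcium channel beta subunit, was at 285 CPM against 1.28 and 0.544. Fabp5, a fatty acid carrier, was at 4478 CPM against 72.9 and 167, and Il2ra, the alpha chain of the interleukin 2 receptor, at 174 CPM against 2.55 and 3.11. Genes best known from neurons were among them, with Syn3, a synapsin, at 232 CPM, Dscaml1, an adhesion protein, at 225 CPM and Adam23 at 428 CPM. Dscaml1 had 0 UMIs in type 1 cells, which made it at least 352-fold higher. Apol7c, of the apolipoprotein L family with close copies, was at 157 CPM and at least 246-fold higher than in type 1 cells but was counted in 15 members. The others were Zmynd15, Gm42601, Tmem150c and Nudt17, at 107 to 279 CPM, and the genes Il4i1, Socs2, Serpinb6b, Cd200, Il12b, Ccl22, Serpinb9 and Tnfrsf4 given above.

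The same 20 genes were counted cell by cell. They had been chosen for their ratios over these same cells, so the difference between the groups follows from the choice and is given as a description. Members had a median of 14 of the 20 genes (3 to 19), against a median of 1 in type 1 (0 to 6) and type 2 cells (0 to 7). With cells thinned to 5000 UMIs, members had a median of 11 (2 to 17) and both other groups 0. At full depth 62 members had 10 or more of the 20 genes and 2 had fewer than 5. At 5000 UMIs 7 members had fewer than 5.

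The 15 genes with the lowest ratios were of several kinds. Spp1, which encodes the secreted protein osteopontin, was at 6.28 CPM against 147 and 162, which was 23.3-fold and 25.8-fold lower. Mmp9, a matrix protease, was at 10.5 CPM against 107 and 211, and Stfa2l1, of the stefin family of protease inhibitors, had 3 UMIs against 72.7 and 111 CPM. Signaling and skeletal genes were also present, with Mef2c, a transcription factor, at 17.4 CPM against 260 and 183 and Eps8, an actin-capping protein, at 40.5 CPM against 311 and 426. Cd226, an adhesion receptor, had 1 UMI against 54.2 and 54.6 CPM. The others were Ccl2, Ccl7, Ccl4 and Cd36, given above, and Gas7, Mctp1, Ctnnd2, Samd9l and Iqgap2, all at or below 27.2 CPM in members.

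Macrophage and neutrophil markers moved with these lower genes. The macrophage list summed to 217 CPM in members against 1051 and 2555, and the neutrophil list to 6287 CPM against 20466 and 40629. Cells with at least 20 UMIs of the neutrophil list, the macrophage list or Gata3 and Il1rl1 were 9 of 75 members, 44 of 188 type 1 and 265 of 551 type 2 cells. With these cells left out of all 3 groups and the same 4 libraries kept, 199 genes were higher and 150 lower, and all 20 genes named as higher were still called. Of the 15 named as lower, 10 were called and Spp1, Stfa2l1, Ccl7, Mmp9 and Cd36 were not. Mmp9 then had a log2 ratio of -0.39 against type 1 and -0.26 against type 2 cells. Stfa2l1 was at -0.36 against type 1 and turned to 0.062 against type 2 cells, and Cd36 stayed at -2.66 against type 1 but turned to 0.11 against type 2 cells. Spp1 was at -2.70 and -1.83 and Ccl7 at -2.66 and -1.71, while Ccl2 (-2.92 and -2.82), Mef2c (-3.75 and -3.56) and Eps8 (-3.17 and -3.43) kept their calls.

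Members differed among themselves in class II and Ccl22. In 13 members H2-Ab1 was below 20 UMIs per 10000 of the cell, and their median Ccl22 was 19.8 per 10000, against 1.30 in the other 62. The ranges of Ccl22 overlapped, at 0.249 to 99.0 in the 13 and 0 to 66.1 in the other 62. H2-Aa was also lower in the 13, at a median of 29.6 against 79.3, as was Cd74, at 57.7 against 169. Depth was alike, with medians of 18063 and 17623 UMIs. The limit of 20 was chosen after the values had been seen. Of the 75 members, 25 had at least 10 Ccl22 UMIs and held most of it, with 66.4% of all Ccl22 UMIs in 10 cells.

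**Figure D5:**
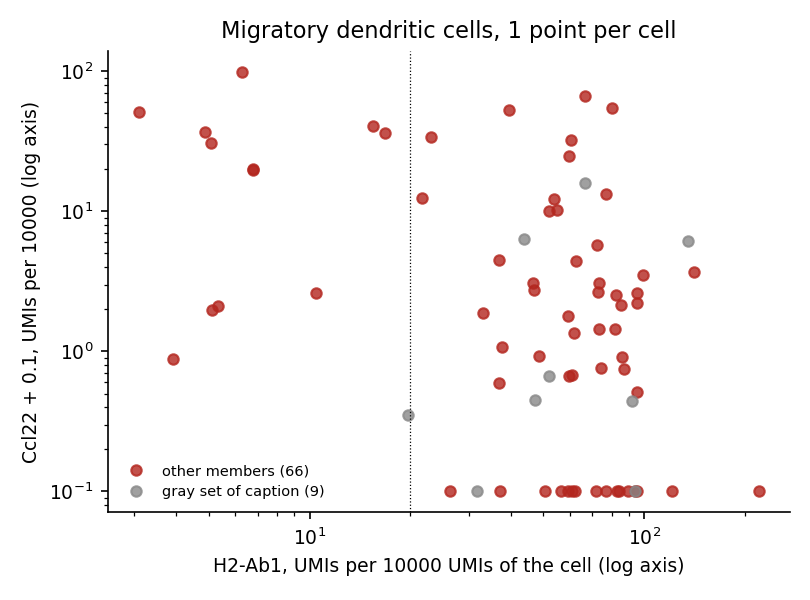
Each point is 1 of the 75 members, with H2-Ab1 on the horizontal and Ccl22 + 0.1 on the vertical axis, both as UMIs per 10000 UMIs of the cell on log axes, and in gray the 9 members with at least 20 UMIs of the neutrophil list, the macrophage list or Gata3 and Il1rl1. The 13 members left of the dotted line at 20 had a median Ccl22 of 19.8, and points on the lowest row had no Ccl22 UMI.

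Beside them stood the 17 cells that met every condition except H2-Ab1. They came from 5 of 6 libraries and had medians of 45 Ccr7 and 19 Fscn1 UMIs at a median depth of 13297 UMIs. Their Ccl22 was at 2204 CPM, Il12b at 1085 CPM and Mreg at 1022 CPM, all above the members, while H2-Aa was at 1018 CPM and Cd74 at 2809 CPM. Each of the 20 genes with the highest ratios was above 2 times its type 2 level in these cells. Of these 20 genes, 14 were above their level in members and 6 below, among them Adam23 at 147 CPM against 428 and Gm42601 at 50.5 CPM against 130. With an H2-Ab1 limit of 1 the share of members was 0.255% of cells.

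Markers of other cell types were summed in members and in the comparison groups. The 6 neutrophil markers summed to 6287 CPM in members, against 20466 in type 1, 40629 in type 2 and 123041 in the other cells. S100a9 was the most abundant. Only 5 members had any of them, and 1 member in library 5 held 82.3%, so that the sum was 40091 CPM in library 5, 397 in library 1, 2352 in library 3 and 0 in library 4. The table writes S100a9 as 0 in 68 members and S100a8 in 61. Whether the authors' correction for free RNA emptied these entries was not tested. The 6 macrophage markers, led by Apoe, summed to 217 CPM against 1051 and 2555, with 835 CPM in library 4, and 3 members had at least 20 UMIs. The innate lymphoid list was higher in members than in the other groups, at 325 CPM against 28.7 in type 1, 114 in type 2 and 86.3 in the other cells, and 51 members had any of it. Most of it was Il7r at 242 CPM, and 2 members had at least 20 UMIs of Gata3 and Il1rl1, one of them with 137 of the 138 UMIs of Il5. B cell markers summed to 8.37 CPM, against 7.23 and 3.50, with Ebf1 at 0 and Cd79a at 0 by the rule. T cell markers summed to 11.2 CPM, against 0.638 and 0.466, with Cd3d, Cd3e and Cd3g at 0 by the rule in all 3 groups. Cd207 and Cdh1 of Langerhans cells were at 0. Natural killer, mast cell and fibroblast markers summed to 1.40, 0.698 and 2.79 CPM. Monocyte markers summed to 122 CPM, led by Ccr2, against 656 and 998, and plasma cell markers to 38.4 CPM, all of it Xbp1, against 124 and 110. Plasmacytoid markers summed to 484 CPM, led by Tcf4 with Siglech at 0 by the rule, against 421 and 431, and 73 members had any of them. Without the 9 members with at least 20 UMIs of the neutrophil list, the macrophage list or Gata3 and Il1rl1 together, Ccl22 was at 1112 CPM, and all 20 genes named as higher were still called.

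Barcodes were also compared between libraries. Of all barcode sequences, 138 occurred in more than 1 library, and 2 members carried such a barcode.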

How the data were processed

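Synovial CD45+ cells of 2 vehicle and 4 PEPITEM samples were analyzed as 1 table. The authors deposited whole UMI counts for 20394 genes and 32953 cells, not scaled for depth. They aligned reads to mm10 with Cell Ranger 7.0.0, corrected free RNA with SoupX 1.6.2, removed doublets with DoubletFinder 2.0.3, and kept cells in Seurat 4.3.0 with 200 to 7000 genes and at most 10% mitochondrial UMIs. No doublet caller was run again. No column of per-sample values was left unused. Libraries held 47273569 to 123367661 UMIs, and members 1433055.

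Members and lists were chosen with earlier results of these data known. Genes compared had at least 10 CPM in 1 group, and genes of the rules were left out. Named genes were the 20 highest and 15 lowest by the smaller of both ratios among genes called against both groups, besides genes of the 19 lists (262 genes) and 15 marker lists. Clec7a was not used here, and some genes are not reported here. Il5 and the split at 20 H2-Ab1 UMIs were chosen after values were seen. Gene positions came from GENCODE M21 by symbol. Tables were made under Python 3.11.15 with pandas 2.3.3 and numpy 2.4.6, intervals with scipy 1.17.1, and plots with matplotlib 3.10.9. No p-value was computed, since libraries of unknown treatment are not replicates.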

Additional observations from a re-analysis of the deposited data

How the results depend on the processing

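No paired analysis was possible because, for vehicle against PEPITEM, no source used here ties the library numbers to samples, and for the same reason the planned replicate block, DESeq2 size factors and omission of samples in vehicle against PEPITEM were not run. Leaving out 1 library in turn gave 0.163% to 0.279% of cells as members, Ccl22 at 789 to 1159 CPM, Zbtb46 at 282 to 316 CPM, 181 to 211 genes higher and 90 to 152 lower. The share of members stayed within its interval under the other rules tried. For cells thinned to 5000 UMIs this share was taken over the 26713 cells of at least that depth, of which 56 met the rule. Of the 73 members of at least 5000 UMIs, 54 stayed members after thinning. With cells above the 95th percentile of UMIs left out, Ccl22 was at 1082 CPM. The median over libraries gave Ccl22 at 735 and Zbtb46 at 267 CPM, and the mean of per-cell fractions gave Zbtb46 at 327 CPM. Adding 1 CPM gave 229 lower genes, adding 20 CPM gave 105 higher and 31 lower, a fold of 2 gave 518 and 708, and division by the median ratio gave 62 lower. Without the 9 members rich in markers of other types, an alternative chosen after seeing the data, Ccl22 was at 1112 CPM and 317 genes were lower, with 3 or with the same 4 libraries. With such cells left out of all 3 groups, also chosen after seeing the data, 150 genes were lower, 5 of the 15 named lower genes lost their calls, and against type 2 cells Cd36 turned to 0.11 and Stfa2l1 to 0.062 (log2). Members with a Ccl22 UMI were 58.9% at 5000 and 47.3% at 3000 UMIs. No other direction of a named gene turned. The calls of Cd226, Cd36 and Samd9l were lost with 20 CPM added, that of Cd36 with a minimum of 50 CPM, and that of Stfa2l1 without the deepest cells. With 75 cells, a gene with no UMI may be at up to 2.09 CPM. The causes of these shifts were not tested.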
